A study of Mus musculus with 7 samples.

Results

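RNA of 10 genes was followed in sorted bone marrow hematopoietic stem cells (HSCs) with and without deletion of Fth1, the ferritin heavy chain gene. The products of the 10 genes separate mouse HSCs from the progenitors next to them. The genes are Slamf1, Cd48, Cd244, Procr, Ly6a, Cd34, Flt3, Fgd5, Ctnnal1 and Cd27. They were found by symbol among 55855 gene identifiers of the deposited expression table, 9 directly in GENCODE mouse release M21 and Cd244 under its M21 symbol Cd244a. Their choice used no measured value, although it was made with results of these data known. HSCs labelled Fth1△/△ gave 4 libraries (called Fth1-deleted), which were set against 3 libraries of HSCs labelled Fth1fl/fl (called control), all from mice aged 2 months. The control cells carry the floxed Fth1 gene, and the series text describes the deletion as conditional in the hematopoietic system. The Cre driver, the gate of the sort and the sex of the mice are not given in the sources used here. Whether every library is a different mouse is not stated either, so p-values measure the spread between libraries, which may be technical. Bulk RNA of sorted cells cannot tell fewer cells of a type from less RNA per cell.

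Adult mouse HSCs are sorted as cells without lineage markers that carry Sca-1 (the product of Ly6a) and the receptor Kit. Within that pool, CD150 (Slamf1) and EPCR (Procr) mark stem cells, whereas CD48, CD244, CD34 and FLT3 appear as cells become multipotent progenitors. CD150, CD48 and CD244 are all receptors of the SLAM family, whose genes lie side by side on chromosome 1, and CD48 is the ligand of CD244. Fgd5 and Ctnnal1 encode intracellular proteins whose reporter alleles label HSCs, and CD27 is a tumor necrosis factor receptor found on many stem and progenitor cells.

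Each library held 12058849 to 15453752 counted reads, read back from the deposited FPKM (fragments per kilobase of gene length, scaled to library size). A gene of 1 kb with 1 read had an FPKM of 0.0647 to 0.0829. Fth1, the deleted gene, was at 202, 333, 358 and 114 FPKM in Fth1-deleted libraries 1 to 4, against 552, 659 and 638 FPKM in controls 1 to 3. It averaged 252 ± 114 FPKM in Fth1-deleted libraries and 616 ± 56.5 FPKM in control libraries (SD, n = 4 and 3), and all 4 Fth1-deleted libraries lay below all 3 controls. The log2 difference of Fth1 was -1.42 (SE 0.33, limma adjusted p = 0.193), so the targeted gene did not pass the threshold of 0.05. Control 2 stood apart on the first principal component, at -101 against -4.28 and -15.1 in controls 1 and 3. Fth1-deleted libraries were at 20.2 to 39.4 on it. The mitochondrial gene mt-Co2 was at 2470 FPKM in control 1 and 1750 FPKM in Fth1-deleted 3, against 60.8 to 77.2 FPKM in the other libraries. Ribosomal RNA genes took 1.21% to 1.34% of reads in Fth1-deleted libraries, against 0.0253%, 0.984% and 0.0140% in controls 1, 2 and 3. Of the genes above 0, 16.5% to 21.8% had fewer than 50 reads in Fth1-deleted libraries and 12.3% to 13.9% in control libraries. Reads of 4 Y-linked genes were present in Fth1-deleted 1, 2 and 3 and in control 2, and absent from Fth1-deleted 4 and controls 1 and 3.

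The labelled cell type was checked against its defining genes. Kit was at 209 to 313 FPKM in Fth1-deleted and 279 to 428 FPKM in control libraries, and Ly6a, Procr, Slamf1, Fgd5 and Ctnnal1 were above 0 in all 7 libraries. The lineage antigen genes Cd3e, Cd5 and Ly6g were listed at 0 in every library. Cd34 and Cd48, which progenitors carry, were also present in all 7 libraries, and the gate used is not known.

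Promoters are shown for Cd48, Cd244, Cd34 and Procr, because these are the progenitor-side genes with the smallest p-values and the stem cell surface gene with the largest difference. Each sequence is the 250 bases before RefSeq's gene start on the coding strand (GRCm38.p6), at chr1:171681742-171681991 (+), chr1:171558943-171559192 (+), chr1:194938571-194938820 (+) and chr2:155750967-155751216 (+). RefSeq and GENCODE starts differ for some genes, and the windows of Procr and Cd34 run past the GENCODE starts given below. Capitals mark matches on either strand to TGACNNNGC, the letters of the antioxidant response element bound by NRF2 and BACH1, and to the RUNX letters TGTGGT.
Cd48: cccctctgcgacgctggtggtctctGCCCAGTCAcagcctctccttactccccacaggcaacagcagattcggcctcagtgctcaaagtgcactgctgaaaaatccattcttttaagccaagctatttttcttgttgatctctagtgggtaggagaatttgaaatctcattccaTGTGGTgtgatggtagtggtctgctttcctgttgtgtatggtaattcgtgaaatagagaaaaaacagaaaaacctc
Cd244: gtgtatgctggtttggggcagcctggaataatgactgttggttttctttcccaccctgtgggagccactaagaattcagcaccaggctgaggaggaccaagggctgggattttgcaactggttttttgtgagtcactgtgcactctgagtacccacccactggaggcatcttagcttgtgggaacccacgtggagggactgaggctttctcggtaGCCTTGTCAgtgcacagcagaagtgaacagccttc
Cd34: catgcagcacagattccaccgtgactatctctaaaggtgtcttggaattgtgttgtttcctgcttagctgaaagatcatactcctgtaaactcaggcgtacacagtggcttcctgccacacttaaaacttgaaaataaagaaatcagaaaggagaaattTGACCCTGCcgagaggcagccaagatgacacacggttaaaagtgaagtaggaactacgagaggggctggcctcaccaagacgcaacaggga
Procr: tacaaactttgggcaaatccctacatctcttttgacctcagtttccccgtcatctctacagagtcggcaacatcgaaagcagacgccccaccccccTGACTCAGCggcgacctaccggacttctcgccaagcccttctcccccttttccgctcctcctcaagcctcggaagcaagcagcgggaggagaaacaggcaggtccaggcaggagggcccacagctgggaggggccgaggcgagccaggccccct
The first motif occurred in these 4 of the 9 members with a RefSeq promoter entry, and in 10.2% of 32851 promoter windows of the same length. Cd48 also held TGTGGT, with its first base at -76, which 14.0% of windows hold. Flt3 held the ETS letters GGAAGT, present in 19.7% of windows, and no member held the GATA letters AGATAA, present in 9.99%. No 2 of these matches overlapped. GC content was 46.0% for Cd48, 53.2% for Cd244, 46.4% for Cd34 and 61.6% for Procr, against a median of 52.4% over all windows. Matches to letters are a description and show no binding.

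None of the 10 genes passed the threshold of an adjusted p under 0.05 (limma on log2(FPKM + 1), Benjamini-Hochberg over the 13948 genes tested), where 8 genes or 0.0574% passed, 0.0287% higher and 0.0287% lower. At an unadjusted p under 0.05, 3 of the 10 (Cd34, Cd48 and Cd244) differed, all 3 higher, against 9.83% of all genes tested (4.90% higher and 4.93% lower). With limma-voom on recovered reads 0 members passed the adjusted and 5 the unadjusted threshold, and 10.7% of all genes were under an unadjusted p of 0.05. The unadjusted count was 1 with the replicate block and 2 to 5 with 1 library left out. All 10 members passed the filter of a mean of 1 FPKM. Of the log2 differences, 5 were positive and 5 negative, with a median of 0.14 against -0.02 over all genes tested, of which 48.7% were positive. The positive ones were Slamf1, Cd48, Cd244, Cd34 and Flt3. Negative ones were Procr, Ly6a, Cd27, Fgd5 and Ctnnal1. Cd48, Cd244, Cd34 and Flt3, the 4 introduced above as appearing when cells become multipotent progenitors, were all positive. Slamf1, which marks stem cells, was positive too. Cd27 and Ly6a, whose products are not limited to stem cells, were negative.

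**Figure D1:**
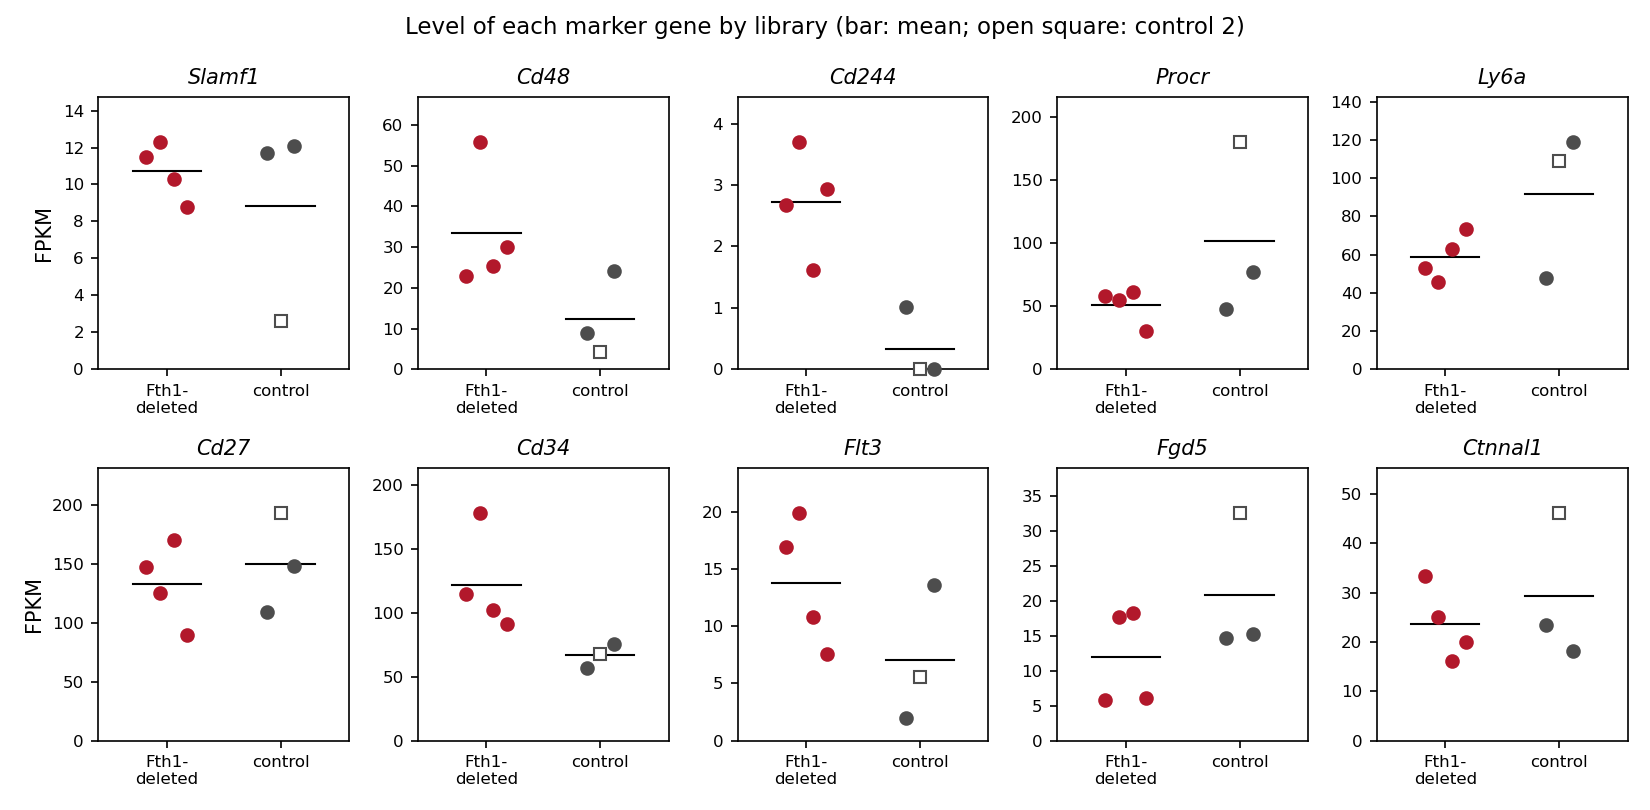
FPKM of each marker gene (linear axes from 0) in the 4 Fth1-deleted libraries on the left and the 3 control libraries on the right of each panel, with bars at group means and an open square for control 2. Cd244 and Cd34 do not overlap between the groups, and control 2 is the lowest library for Slamf1 and Cd48 and the highest for Procr, Fgd5, Ctnnal1 and Cd27.

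Cd34 and Cd244 were the members whose groups did not overlap, both higher in Fth1-deleted libraries, as were 4.10% of all genes tested (9.65% in either direction). Cd34 (ENSMUSG00000016494, chromosome 1, 194938819 to 194961279, plus strand) encodes a sialomucin that long-term HSCs of adult mice carry little of. It was at 115, 178, 102 and 91.0 FPKM in Fth1-deleted libraries 1 to 4, against 56.8, 68.0 and 75.3 FPKM in controls 1 to 3. Fth1-deleted 2 was the highest library, and the lowest Fth1-deleted library lay above the highest control. The ratio of means was 1.82, and the log2 difference was 0.82 (SE 0.25, 95% interval 0.28 to 1.35, limma adjusted p = 0.326). It stayed at 0.62 to 0.94 with any 1 library left out. Cd34 shares 148 of its 7290 annotated exon bases with the antisense gene Gm16897. That gene was at 1.3, 2.12, 0 and 0.38 FPKM in Fth1-deleted libraries 1 to 4 and listed at 0 in every control. The strand setting of the counts is not given, and the part of shared reads in the level of Cd34 was not tested.

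Cd244 (ENSMUSG00000004709, chromosome 1, 171559193 to 171609746, plus strand), a SLAM receptor of natural killer cells and of progenitors, was the lowest of the 10 in both groups. It was at 2.67, 3.70, 1.61 and 2.93 FPKM in Fth1-deleted libraries, worth 100, 122, 50 and 105 reads. In control libraries it was at 1.01, 0 and 0 FPKM, worth 34, 0 and 0 reads. The log2 difference was 1.53 (SE 0.68, 95% interval 0.04 to 3.02, limma adjusted p = 0.496). On this scale it was 0.53 with a pseudocount of 5 and 3.61 with a pseudocount of 0.1. Genes with few reads were also more frequent in Fth1-deleted libraries, as given above, and their part in this difference was not tested. Ly9 lies within the span of Cd244 on the opposite strand, and 0 of the 4876 exon bases of Cd244 are shared with it.

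Cd48 (ENSMUSG00000015355, chromosome 1, 171682009 to 171705258, plus strand) encodes a surface protein held by a lipid anchor, whose absence defines the SLAM gate for HSCs. It was at 22.8, 55.8, 25.3 and 30.1 FPKM in Fth1-deleted libraries, against 8.95, 4.16 and 24.2 FPKM in control libraries. Control 3 lay within the Fth1-deleted range, and controls 1 and 2 lay below it. Means were 33.5 ± 15.2 and 12.4 ± 10.5 FPKM (SD, n = 4 Fth1-deleted and 3 control), a ratio of 2.69. This gave a log2 difference of 1.57 (SE 0.51, 95% interval 0.46 to 2.68, limma adjusted p = 0.369), or 1.03 without control 2.

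Flt3 (ENSMUSG00000042817, chromosome 5, 147330741 to 147400489, minus strand), a cytokine receptor gene of progenitors with lymphoid potential, measured 16.9, 19.9, 10.8 and 7.55 FPKM in Fth1-deleted libraries. Controls 1 to 3 were at 1.95, 5.56 and 13.6 FPKM, so control 3 lay above 2 of the Fth1-deleted libraries. Its log2 difference was 1.09 (SE 0.58, 95% interval -0.17 to 2.34, limma adjusted p = 0.579), and it was 0.51 without control 1 and 1.66 without control 3.

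Slamf1 (ENSMUSG00000015316, chromosome 1, 171767127 to 171801184, plus strand), the positive marker of the SLAM gate, was at 11.5, 12.3, 10.3 and 8.79 FPKM in Fth1-deleted libraries. Control libraries were at 11.7, 2.63 and 12.1 FPKM. Control 2 was the lowest of all 7 libraries, and the other 2 controls lay within the Fth1-deleted range. The log2 difference was 0.46 (SE 0.52, 95% interval -0.66 to 1.58, limma adjusted p = 0.791), and without control 2 it changed sign to -0.15. Slamf1 varied least among the members in Fth1-deleted libraries, with a coefficient of variation of 14.2% against 60.8% in control libraries. The median over all genes tested was 32.8% in Fth1-deleted and 38.1% in control libraries.

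Procr (ENSMUSG00000027611, chromosome 2, 155751117 to 155755471, plus strand) encodes the endothelial protein C receptor, one of the most selective surface markers of mouse HSCs. It was at 58.4, 54.7, 61.2 and 30.1 FPKM in Fth1-deleted libraries, against 48.0, 180 and 76.9 FPKM in control libraries. Control 2 was the highest library and Fth1-deleted 4 the lowest, while control 1 lay within the Fth1-deleted range. Procr had a log2 difference of -0.81 (SE 0.40, 95% interval -1.68 to 0.05, limma adjusted p = 0.540). It was -0.30 without control 2 and -1.24 without control 1.

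Ly6a (ENSMUSG00000075602, chromosome 15, 74994877 to 74998031, minus strand), the gene of Sca-1, was at 53.2, 45.6, 63.2 and 73.3 FPKM in Fth1-deleted and 47.7, 109 and 119 FPKM in control libraries. Controls 2 and 3 lay above all Fth1-deleted libraries and control 1 within their range. Ly6a had a log2 difference of -0.55 (SE 0.31, 95% interval -1.23 to 0.13, limma adjusted p = 0.611). It was -0.96 without control 1 (limma adjusted p = 0.208), -0.37 without control 2 and -0.31 without control 3. Its level is uncertain where reads could be shared with related genes, since 513 bases of Ly6a match Ly6c2 at 86.4% identity and 805 bases match Ly6i at 85.6%. Ly6c2 was at 2.26 to 25.3 FPKM in Fth1-deleted and 0 to 5.67 FPKM in control libraries, and Ly6i was at 4.04 FPKM in control 2 and listed at 0 elsewhere.

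Cd27 (ENSMUSG00000030336, chromosome 6, 125232622 to 125237010, minus strand) was at 147, 125, 170 and 89.3 FPKM in Fth1-deleted and 109, 193 and 148 FPKM in control libraries, with overlapping ranges. The log2 difference was -0.18 (SE 0.26, 95% interval -0.74 to 0.38, limma adjusted p = 0.839), and 0.02 without control 2. The gene lies within the span of Vamp1 on the opposite strand, with 0 exon bases shared.

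Both reporter genes overlapped between the groups. Fgd5 (ENSMUSG00000034037, chromosome 6, 91978878 to 92076004, plus strand), which encodes an exchange factor of the GTPase CDC42, was at 5.83, 17.6, 18.2 and 6.03 FPKM in Fth1-deleted libraries. Control libraries were at 14.7, 32.5 and 15.3 FPKM. Fth1-deleted 1 and 4 lay below every control, whereas Fth1-deleted 2 and 3 lay above controls 1 and 3. The log2 difference was -0.84 (SE 0.50, 95% interval -1.93 to 0.26, limma adjusted p = 0.625), and -0.48 without control 2. Ctnnal1 (ENSMUSG00000038816, chromosome 4, 56810935 to 56865188, minus strand), the gene of alpha-catulin, was at 33.4, 25.1, 16.1 and 20.0 FPKM in Fth1-deleted and 23.5, 46.1 and 18.1 FPKM in control libraries. Its log2 difference was -0.24 (SE 0.38, 95% interval -1.05 to 0.58, limma adjusted p = 0.858), and 0.14 without control 2.

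**Figure D2:**
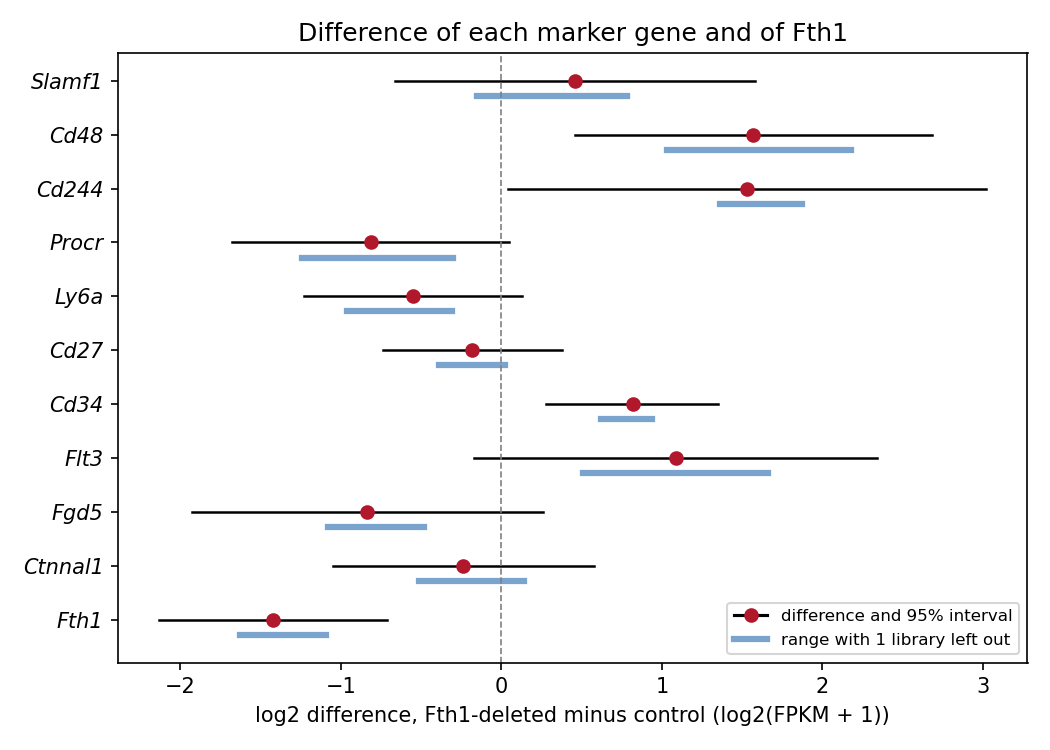
Log2 difference of each marker gene and of Fth1 (horizontal axis, log2(FPKM + 1) of Fth1-deleted less that of control libraries) with its 95% interval in black, and in blue the range with 1 library left out. The intervals of Cd48, Cd244 and Cd34 lie above 0, and the blue bars of Slamf1, Cd27 and Ctnnal1 cross 0.

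Control 2 stood apart for most members. It was the highest of the 7 libraries for 4 members (Procr, Fgd5, Ctnnal1 and Cd27) and the lowest for 2 (Slamf1 and Cd48), where 21.8% and 15.0% of all genes tested have control 2 highest or lowest. Procr in control 2 was 2.88 times the mean of controls 1 and 3, Ctnnal1 2.22 times and Fgd5 2.17 times. Slamf1 in control 2 was 0.221 times that mean and Cd48 0.251 times. Cd34 in control 2 was 1.03 times the mean of the other controls. Without control 2 the groups of Cd34 and Cd244 still did not overlap, and 7.77% of all genes tested were then higher and 9.43% lower without overlap. Without control 1 the groups of 4 members did not overlap, as for 20.9% of all genes tested. Without control 3 there were also 4, as for 18.8%.

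Y-linked reads divide the libraries into 4 that hold them (3 Fth1-deleted and 1 control) and 3 that do not (1 Fth1-deleted and 2 control). Within both sets, a division made after seeing the data, every Fth1-deleted library lay on the same side of every control for 6 of the 10 members, as for 24.0% of all genes tested. Cd34, Cd48 and Cd244 were higher in both sets (10.4% of all genes), and Procr, Fgd5 and Cd27 lower (13.6%). Procr was at 58.4, 54.7 and 61.2 FPKM in Fth1-deleted libraries with Y-linked reads, against 180 FPKM in the control with them. Without them it was at 30.1 FPKM in the Fth1-deleted library, against 48.0 and 76.9 FPKM in controls. With a term for Y-linked reads, the log2 difference of Procr was -1.32 (SE 0.26, limma adjusted p = 0.101) and that of Slamf1 0.75 (SE 0.55, limma adjusted p = 0.614). Slamf1 was higher in Fth1-deleted libraries in the set with Y-linked reads and lower in the other. Each set holds an arm of 1 library, so these orders have no replicate check. By ribosomal RNA share, control 2 was the only control near the 4 Fth1-deleted libraries. In that set of 5, control 2 lay outside the Fth1-deleted range for all 10 members, below it for Cd34, Cd48, Cd244, Flt3 and Slamf1 and above it for the other 5. It did so for 51.5% of all genes tested, and 1 control library allows no replicate check.

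Gates set some of these markers against each other, so their ratios were taken in each library, as a description. The ratio of Procr to Cd34 was 0.509, 0.308, 0.599 and 0.330 in Fth1-deleted libraries, against 0.846, 2.64 and 1.02 in control libraries. Every Fth1-deleted library lay below every control. Cd34 alone also separated the groups, whereas Procr alone overlapped, so the ratio is not a separate result. The share of other gene pairs with separated ratios was not computed. The ratio of Slamf1 to Cd48 was 0.503, 0.221, 0.408 and 0.293 in Fth1-deleted libraries and 1.31, 0.633 and 0.501 in control libraries. Fth1-deleted 1 and control 3 were nearly equal, and the remaining libraries were separated. The ratio of Slamf1 to Flt3 was 0.620 to 1.17 in Fth1-deleted libraries, within the control range of 0.474 to 6.02.

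**Figure D3:**
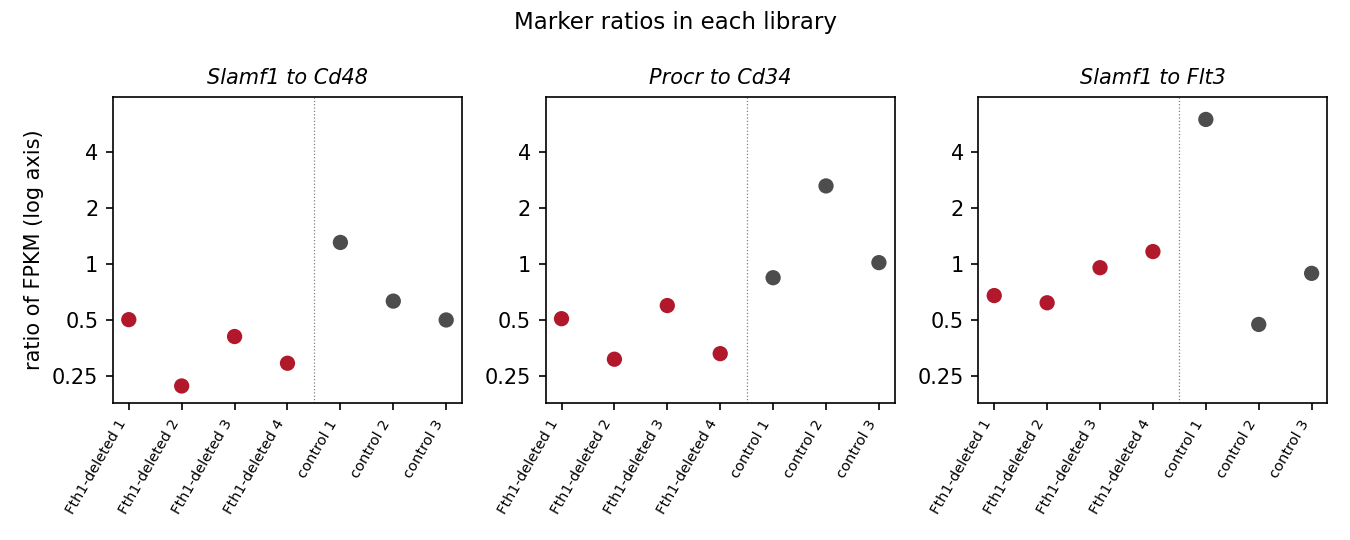
Ratio of the FPKM of 2 marker genes in each library (vertical log axis), with Fth1-deleted libraries in red on the left and control libraries in grey on the right. Procr to Cd34 is below 0.6 in every Fth1-deleted library and above 0.8 in every control, whereas Slamf1 to Flt3 overlaps. Cd34 alone also separates the groups.

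Levels can be compared between genes because FPKM is per length. In Fth1-deleted libraries the order by mean FPKM was Cd27, Cd34, Ly6a, Procr, Cd48, Ctnnal1, Flt3, Fgd5, Slamf1 and Cd244. In control libraries it was Cd27, Procr, Ly6a, Cd34, Ctnnal1, Fgd5, Cd48, Slamf1, Flt3 and Cd244. Neighbours in the order overlapped in range, except between Cd34 and Ly6a and between Slamf1 and Cd244 in Fth1-deleted libraries, and between Cd34 and Ctnnal1 and between Flt3 and Cd244 in control libraries. Cd34 held rank 2 in Fth1-deleted and rank 4 in control libraries, and Cd48 rank 5 and rank 7. The order depends on the gene length used. FPKM here rests on the mean transcript length, 1460.3 bases for Ctnnal1, whose annotated exons cover 7661 bases. With the length of all exons Ctnnal1 moved to rank 9 in Fth1-deleted and rank 7 in control libraries, and Cd34 to rank 3 in Fth1-deleted libraries. Cd48 moved to rank 4 in Fth1-deleted and rank 6 in control libraries. In control libraries Ly6a then held rank 1 and Cd27 rank 3.

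On chromosome 1, 7 SLAM receptor genes lie within 394 kb, in the order Cd244, Ly9, Slamf7, Cd48, Slamf1, Cd84 and Slamf6. Slamf8 and Slamf9 lie outside this stretch on the same chromosome. Their differences did not share 1 direction. Cd84, which encodes a receptor that binds itself on neighbouring cells, was at 32.3 ± 6.91 FPKM in Fth1-deleted and 39.7 ± 7.81 FPKM in control libraries (SD, n = 4 and 3), a log2 difference of -0.29 (SE 0.27, limma adjusted p = 0.744). Ly9 had a log2 difference of 0.63 (SE 0.51, limma adjusted p = 0.713) and Slamf7 one of -0.71 (SE 0.85, limma adjusted p = 0.801). Slamf6 was above 0 only in Fth1-deleted 1, at 1.04 FPKM. With their adaptors and phosphatases, 11 of 16 genes of this list were tested. Slamf1, Cd48 and Cd244, which are members, are counted again among them, and all were positive. Of the 11 tested, 0 passed the threshold, 7 were positive and 4 negative, and the median was 0.22. That median was -0.05 without control 1 and -0.12 without control 2. The adaptor gene Sh2d1a was listed at 0 in all libraries.

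**Figure D4:**
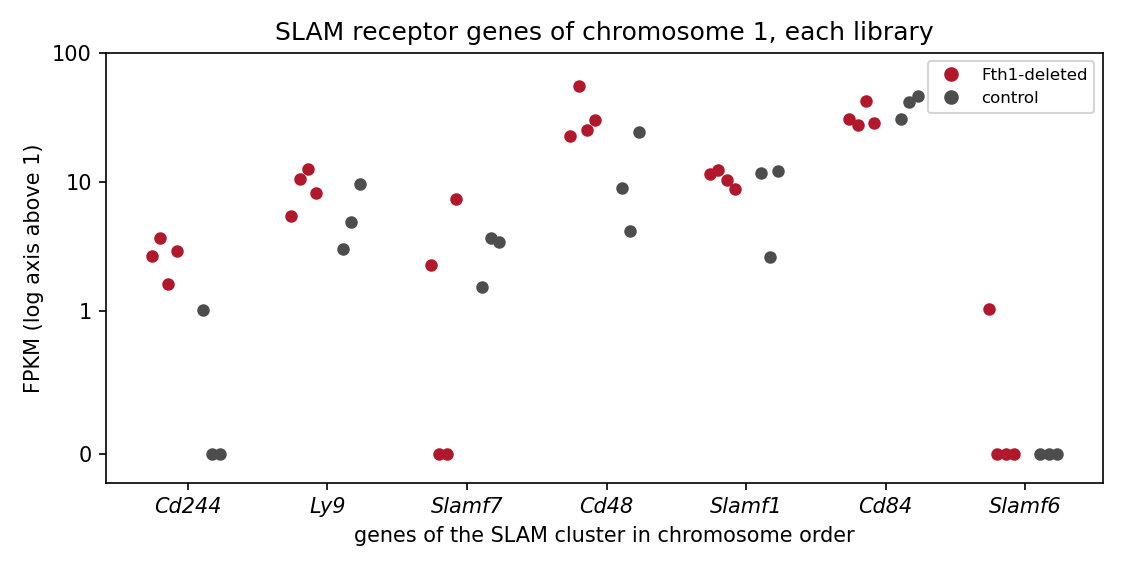
FPKM of 7 neighbouring SLAM receptor genes in chromosome order (vertical axis linear below 1 and logarithmic above), with the 4 Fth1-deleted libraries in red left of the 3 control libraries in grey. Cd244 separates the groups, Cd48 overlaps in 1 control library, and Slamf1 has 1 low control library.

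Other surface markers of stem cells were mostly lower in Fth1-deleted libraries. Of 20 genes, all tested, 0 rose and 1 fell, and 16 differences were negative, with a median of -0.33. The gene that fell is not reported here by name. A further 4 genes were lower without overlap, as were 5.55% of all genes tested, and they are named after their values were seen. The guidance receptor Robo4 was at 10.5 ± 2.13 and 25.6 ± 2.25 FPKM, the lectin Clec1a at 2.55 ± 1.21 and 15.1 ± 8.98 FPKM, endoglin (Eng) at 125 ± 5.78 and 171 ± 7.78 FPKM, and the adhesion receptor Adgrg1 at 1850 ± 288 and 2540 ± 316 FPKM (Fth1-deleted and control, SD, n = 4 and 3). Cd9, a tetraspanin of HSCs and platelets, went the other way without overlap, at 98.6 ± 26.1 FPKM in Fth1-deleted and 53.4 ± 6.34 FPKM in control libraries (limma adjusted p = 0.305).

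Among 11 reporter genes of HSCs, all tested, 0 passed the threshold, 9 were negative and the median was -0.53. The negative ones include the members Fgd5 and Ctnnal1, counted again here. Of the 11 genes, 4 were lower without overlap, as were 5.55% of all genes tested. The transcription factor gene Hlf was at 76.7, 129, 93.9 and 66.9 FPKM in Fth1-deleted and 157, 263 and 198 FPKM in control libraries (limma adjusted p = 0.185). Krt18, a keratin gene, was at 39.2 ± 10.4 and 81.2 ± 5 FPKM in Fth1-deleted and control libraries (SD, n = 4 and 3, limma adjusted p = 0.193).

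Surface markers of progenitors were mostly higher in Fth1-deleted libraries. Of 18 genes, 15 were tested, 0 passed the threshold, 12 were positive and 3 negative, with a median of 1.15. Over all genes tested, 48.7% were positive and the median was -0.02. In this list 2 genes were higher and 1 lower without overlap, as were 4.10% and 5.55% of all genes tested. Genes with few reads were more frequent in Fth1-deleted libraries, as given above, and their part in this median was not tested. The median depended on the pseudocount, at 0.40 with 5 and 2.19 with 0.1, and it was 0.34 over genes with a mean of at least 5 FPKM. Cd53, a tetraspanin gene of leukocytes, was at 11.8 ± 4.81 and 3.05 ± 2.07 FPKM in Fth1-deleted and control libraries (SD, n = 4 and 3, limma adjusted p = 0.357), without overlap. Cd86, named after its values were seen, was lower without overlap, at 1.51 ± 1.98 and 7.79 ± 4.45 FPKM in Fth1-deleted and control libraries (SD, n = 4 and 3). Il7r, the receptor gene of lymphoid progenitors, was listed at 0 throughout.

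Of 12 lineage antigen genes, 6 were tested and 0 passed, 5 were positive and the median was 0.44. It was -0.25 without control 2, 1.03 without control 1 and 1.16 with a pseudocount of 0.1. Their summed level was 9.60 to 24.7 FPKM in Fth1-deleted and 0.183 to 22 FPKM in control libraries. Klrb1c, of natural killer cells, was at 11.7 FPKM in control 3 and listed at 0 in Fth1-deleted libraries. Marker lists of other cells were summed in the same way, and no marker in them passed the threshold. The 5 B cell markers summed to 9.71 to 58.1 FPKM in Fth1-deleted and 0 to 4.95 FPKM in control libraries. The 4 tested of 5 markers of multipotent and lymphoid progenitors, 3 of them members here, summed to 136 to 258 and 70.8 to 114 FPKM, and the 3 mast cell markers to 16.0 to 44.4 and 0 to 12.9 FPKM (Fth1-deleted and control). Other lists overlapped between the groups. The 8 stem cell markers, which include the members Ly6a, Slamf1, Procr, Fgd5 and Ctnnal1, summed to 451 to 624 FPKM in Fth1-deleted libraries. In control libraries they summed to 600 to 1010 FPKM, and 1 of the 8 differences was positive, with a median of -0.48. Macrophage markers summed to 31 to 75.2 and 17.4 to 35.2 FPKM, and neutrophil markers to 158 to 564 and 153 to 339 FPKM (Fth1-deleted and control). Erythroid markers summed to 34.5 to 301 and 33.4 to 239 FPKM, and T cell markers to 0 to 4.93 and 0 to 2.91 FPKM (Fth1-deleted and control). Megakaryocyte markers, whose ranges met at their ends, summed to 780 to 926 FPKM in Fth1-deleted and 525 to 780 FPKM in control libraries. The part of such cells in the levels of Cd34, Cd48 and Cd244 was not tested. Of 23 ligands, partners and relatives of the members, 15 were tested and 0 passed, with a median of 0.08. Among them, Thbd, a partner of EPCR in protein C activation, was at 3.93, 5.54, 3.84 and 3.83 FPKM in Fth1-deleted and 0.929, 3.14 and 0 FPKM in control libraries, without overlap (limma adjusted p = 0.527). Podxl, a relative of Cd34, was at 17 ± 7.29 and 11.2 ± 7.77 FPKM (SD, n = 4 Fth1-deleted and 3 control, limma adjusted p = 0.703). Cd70, the ligand gene of CD27, was listed at 0 in all 7 libraries.

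**Figure D5:**
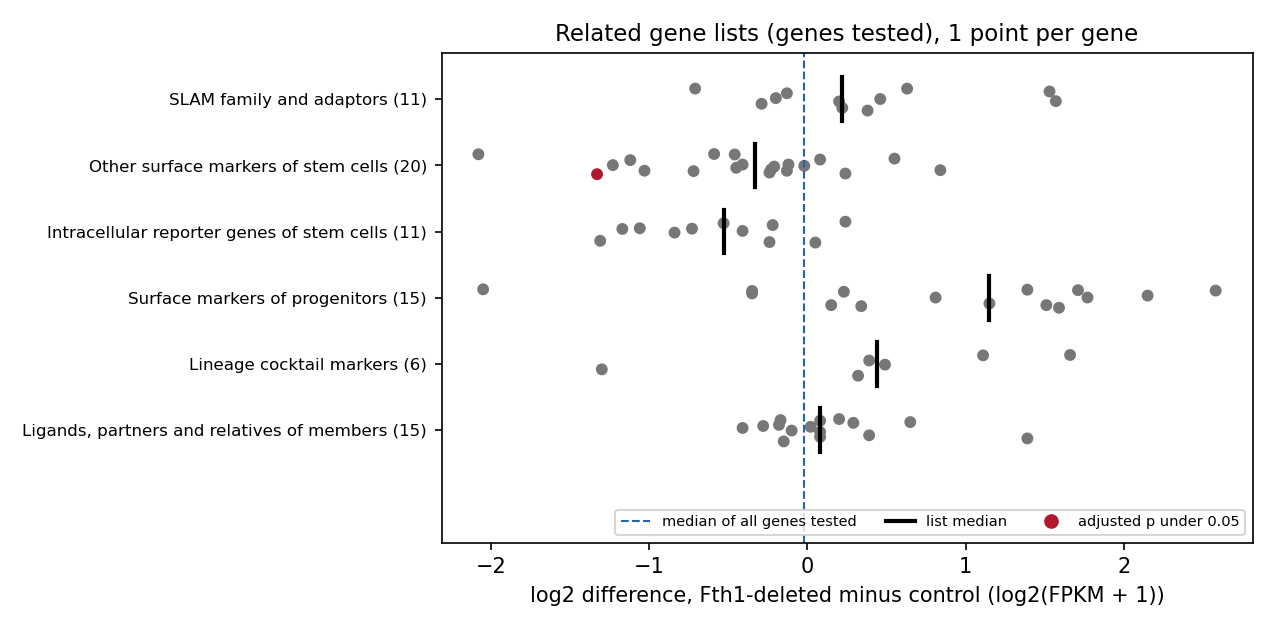
Log2 differences (log2(FPKM + 1), positive where Fth1-deleted is higher) of the tested genes in 6 related lists, with 1 point per gene and a black bar at each list's median. Stem cell lists have medians of -0.33 and -0.53 and the progenitor list one of 1.15, against -0.02 over all genes tested, and 1 gene passed the threshold. The members Slamf1, Cd48, Cd244, Fgd5 and Ctnnal1 are counted again in these lists.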

How the data were processed

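PolyA RNA of sorted bone marrow HSCs was sequenced in 7 libraries. Per the series text and the submitters' processing notes, reads were aligned to GRCm38 with HISAT2 2.0.4 and counted per gene with HTSeq 0.9.1, and the authors computed the deposited FPKM from gene length and counts. The annotation, strand setting and filters are not given in the sources used here. Coordinates and symbols are from GENCODE M21 (GRCm38), which matched 55480 of 55855 identifiers.

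FPKM multiplied by the mean transcript length gave whole reads (within 0.05) for 98.8% to 99.4% of values worth under 50 reads, which set the depth. Such reads are not independent molecules. Genes with a mean of at least 1 FPKM were tested as log2(FPKM + 1) by limma 3.58.1 under R 4.3.3, with a mean-variance trend, without covariates, two-sided and with Benjamini-Hochberg adjustment, after a trial on simulated data. Similar transcripts were searched with blastn 2.17.0. Named genes are the members, Fth1 and, per list, up to 4 genes past the threshold or else the 2 with the smallest p. For each member with a mean of at least 5 FPKM, the named protein-coding gene with the most alike pattern is added. Some genes counted in the lists are not reported by name. Members, lists and tests were chosen with earlier results of these data known. Alternatives were pseudocounts, filters, scalings, library weights, a replicate block, left-out libraries, limma-voom on recovered reads, and terms for ribosomal RNA and Y-linked reads.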

Additional observations from a re-analysis of the deposited data

How the results depend on the processing

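Over 19 alternatives (18 for Cd244, which a filter at 5 FPKM removes), 0 of the 10 marker genes passed the adjusted threshold. Cd48, Cd244, Procr, Ly6a, Cd34, Flt3 and Fgd5 kept their sign in all of them. Leaving out control 2 reversed Slamf1, Ctnnal1 and Cd27. With 1 library left out Slamf1 ran from -0.15 to 0.78, Ctnnal1 from -0.51 to 0.14 and Cd27 from -0.39 to 0.02. Slamf1 reached 2.28, Cd48 3.13 and Procr -2.25 with the ribosomal RNA covariate, with adjusted p of 0.234, 0.165 and 0.159, but that covariate separates the groups except for control 2. Fth1 was at -1.74 with the Y-linked term (adjusted p = 0.0491, where all alternatives gave 0.0491 to 0.684).

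Over all genes, the 8 calls became 0 without a filter and 0 with the replicate block (limma, with 1504 and 987 genes at an unadjusted p under 0.05). They became 5 with limma-voom, 32 with the ribosomal RNA covariate, 17 with the Y-linked term and 0 to 19 with 1 library left out. The 1 call among other surface markers of stem cells became 0 without a filter or with the replicate block, and 0 to 1 with 1 library left out, where it was lost in 6 of 7 fits and kept without control 1. With 1 library left out, 2 to 4 members had groups that did not overlap, against 12.4% to 20.9% of all genes tested. Replicate numbers showed no clear pairing of the libraries. Deviations of same-numbered libraries from their group means correlated at 0.009, 0.061 and -0.037 across genes. Of the 3 controls only control 2 correlated best with its own number. With so few libraries these correlations cannot exclude a pairing. With the block Cd34 was at 0.94 and Cd48 at 1.59 (adjusted p = 0.684 and 0.698). No lineage gene was left at a filter of 5 FPKM. The cause of these changes was not tested. The number of libraries limits precision, and even the narrowest 95% interval among the 10 marker genes, that of Cd34, ran from 0.28 to 1.35.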

Other observations

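For 9 members with a mean of at least 5 FPKM, the most alike of 9383 named protein-coding genes was found by the mean absolute difference of centred log2(FPKM + 1) values over the 7 libraries. It was Dusp12 for Cd34 (0.09), Wrap53 for Cd27 (0.09), Castor2 for Fgd5 (0.11), Irgm1 for Ctnnal1 (0.12), Tmem229b for Ly6a (0.12), Galk1 for Slamf1 (0.14), Trim3 for Procr (0.16), Lman2l for Flt3 (0.22) and Fancd2 for Cd48 (0.32). Galk1, like Slamf1, was lowest in control 2, at 25.1 FPKM against 64.3 to 96.0 FPKM in the other libraries. Trim3 was highest in control 2, at 42.1 FPKM, and lowest in Fth1-deleted 4, at 4.74 FPKM, as Procr was. Dusp12, a phosphatase gene, was at 9.93, 14.4, 7.49 and 6.43 FPKM in Fth1-deleted and 3.46, 4.56 and 4.41 FPKM in control libraries. With 7 libraries and this many genes compared, close matches are frequent.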
